A study of Homo sapiens with 6 samples.

Results

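The SLC25 genes encode the mitochondrial carriers, and their members were taken here as every row of the deposited table whose symbol is SLC25A followed by a number alone. The rule found 48 genes among the 60671 of the table. They were measured in HaCaT, a long-established line of spontaneously immortal human skin keratinocytes, labelled as wild type (WT) and with an unknown batch. All cells were in serum-free high-glucose medium for 24 h, and 3 libraries came from cells given interferon beta (IFN-beta, labelled IFN) at 160 ng/mL and 3 from control cells without it (labelled CTL). The deposited unit is FPKM, which scales the fragments of a gene to its length and to the depth of the library, and errors between libraries are SD with n = 3 per group. Nothing in the labels ties the replicates to separate cultures, and all p-values here therefore rest on a spread between libraries that may be technical.

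Mitochondrial carriers are small proteins of the inner mitochondrial membrane that pass one class of metabolite each between the cytosol and the matrix, often in exchange for another. They are built from repeated pairs of membrane-spanning helices, are encoded in the nucleus, and are brought in by the TOM complex, small chaperones of the intermembrane space and the TIM22 complex. Through them a keratinocyte exports ATP, takes up phosphate, iron, amino acids and cofactors, and moves reducing power across the membrane. The members are described by the substrate they are known to carry.

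Depth ran from 25832158 to 30594527 reads per library, of which 0.240% to 0.258% lay in the 48 genes. The 6 basal keratinocyte markers summed to between 3081 and 3408 FPKM in control and between 3185 and 3201 FPKM in IFN-beta libraries, but single markers moved both ways, with KRT5 lower (log2 change -0.51) and TP63 (0.41), ITGA6 (0.26), ITGB4 (0.22) and COL17A1 (0.53) higher by the limma test used below. Of the suprabasal markers KRT10 was lower (49.2 ± 1.84 FPKM in control and 21.7 ± 2.09 with IFN-beta), while KRT1 (0.61) and IVL (0.08) did not pass and LORICRIN was listed at 0, so that the sum of the list went from between 53.0 and 55.2 FPKM to between 25.2 and 29.1 FPKM through KRT10. The part of these differences in the carrier results was not tested. Summed markers of other cell types stayed below 5 FPKM in every library for each of 4 lists (fibroblast, melanocyte, endothelial and leukocyte), and DCN, TYR, MLANA and LYZ were listed at 0. The 4 endothelial markers summed to between 0.696 and 0.964 FPKM in control and between 2.11 and 2.22 FPKM in IFN-beta libraries, which was mostly CDH5, while PECAM1 and KDR had means of 0.00430 and 0.00179 FPKM. No library stood apart from its group. Pearson's r of log2 values over the tested genes was 0.9938 to 0.9951 within a group and 0.9732 to 0.9759 across the groups, as a description over genes, which are not independent replicates.

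The sequences just upstream of the start sites are shown for the iron carrier SLC25A28, which had the largest rise on log2(FPKM + 0.5), for the ADP/ATP carriers, which are the most abundant class, and for SLC25A53, which had the largest fall. They are from RefSeq (GRCh38.p14) and run 5′ to 3′ on the gene's strand, from 250 bases before the start to 50 after it. Where RefSeq gives several starts, the one nearest to the 5′ end of the deposited gene was taken. Capitals mark matches to CCAAT, to TATAAA, to the interferon-stimulated response element (GAAA, any 2 bases, GAAA), to the STAT-binding element (TTC, any 3 bases, GAA) and to the nuclear respiratory factor element (GCGCA, any base, GCGC). Each was searched on both strands, and none of these matches overlaps another in the windows shown.
SLC25A28, chr10:99620390-99620689, minus strand: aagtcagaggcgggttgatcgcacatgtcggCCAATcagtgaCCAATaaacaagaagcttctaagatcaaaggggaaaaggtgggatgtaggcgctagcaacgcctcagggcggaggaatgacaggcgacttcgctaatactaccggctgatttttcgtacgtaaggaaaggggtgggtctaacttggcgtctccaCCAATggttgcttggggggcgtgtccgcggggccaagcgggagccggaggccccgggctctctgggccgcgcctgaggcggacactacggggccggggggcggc
SLC25A5, chrX:119468194-119468493, plus strand: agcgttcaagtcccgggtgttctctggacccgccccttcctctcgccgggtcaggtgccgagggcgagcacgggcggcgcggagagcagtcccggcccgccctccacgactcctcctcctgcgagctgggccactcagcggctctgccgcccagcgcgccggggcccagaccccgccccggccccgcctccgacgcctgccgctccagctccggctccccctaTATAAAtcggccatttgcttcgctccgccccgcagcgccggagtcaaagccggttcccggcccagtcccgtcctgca
SLC25A6, chrX:1392064-1392363, minus strand: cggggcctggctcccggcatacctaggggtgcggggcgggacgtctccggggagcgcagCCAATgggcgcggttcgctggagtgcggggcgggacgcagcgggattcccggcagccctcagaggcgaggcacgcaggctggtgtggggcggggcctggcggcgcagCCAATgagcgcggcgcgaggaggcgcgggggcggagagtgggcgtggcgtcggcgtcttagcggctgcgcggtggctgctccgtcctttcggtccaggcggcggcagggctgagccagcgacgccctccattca
SLC25A4, chr4:185143016-185143315, plus strand: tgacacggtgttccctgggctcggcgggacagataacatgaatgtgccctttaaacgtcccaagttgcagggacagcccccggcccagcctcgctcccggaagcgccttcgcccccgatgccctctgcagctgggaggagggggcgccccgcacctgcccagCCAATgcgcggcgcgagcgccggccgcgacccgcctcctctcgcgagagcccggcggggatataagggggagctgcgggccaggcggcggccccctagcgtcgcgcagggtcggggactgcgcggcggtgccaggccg
SLC25A53, chrX:104156960-104157259, minus strand: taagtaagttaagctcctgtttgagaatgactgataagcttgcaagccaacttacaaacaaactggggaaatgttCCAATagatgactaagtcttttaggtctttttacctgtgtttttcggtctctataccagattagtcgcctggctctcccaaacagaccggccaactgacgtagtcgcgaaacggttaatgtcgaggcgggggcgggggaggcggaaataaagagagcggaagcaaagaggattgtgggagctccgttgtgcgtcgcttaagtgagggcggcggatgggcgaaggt

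The RefSeq table held such a window for 40 of the 48 members. Some starts lay far from the deposited 5′ end, at 5411 bases for SLC25A23, 87132 for SLC25A26 and 105615 for SLC25A12. Smaller distances were 1055 bases for SLC25A45, 871 for SLC25A46 and 506 for SLC25A24. Their windows are not at the start of the deposited gene. SLC25A28 had 3 matches to CCAAT, first bases at -219, -208 and -54 from the start, and SLC25A6 had 2, at -191 and -84. SLC25A5 had a TATAAA at -27, while SLC25A4 had a CCAAT at -88 and SLC25A53 one at -175. CCAAT was found in 18 of the 40 windows, or 45%, against 34.6% of all 35116 windows in the table, and TATAAA in 3, or 7.5%, against 11.5%. The interferon-stimulated response element was matched in 0 of the 40 windows and in 3.57% of all windows, so it is absent from the 300 bases shown for SLC25A28 as well. The start used for SLC25A28 lay 170 bases from the deposited 5′ end, inside the deposited gene. Most of its window therefore lies within that gene, and little of the sequence upstream of the deposited 5′ end was searched. The STAT-binding element was in 5 of 40 windows (12.5%, against 7.66% of all), those of SLC25A11, SLC25A18, SLC25A23, SLC25A36 and SLC25A44. A match describes letters only, and no match says only that these letters are not in the window.

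Of the 48 members, 39 had a mean of at least 0.5 FPKM over the 6 libraries and were tested with limma on log2(FPKM + 0.5). Changes are IFN-beta minus control on that scale, with the SE, and understate the change of genes at low levels. At a Benjamini-Hochberg adjusted p under 0.05 over all 15163 genes tested, 7 members were higher with IFN-beta, 11 were lower and 21 did not pass. These are 17.9% and 28.2% of the tested members, where 22.5% of all tested genes were higher and 19.9% lower. In all, 46.2% of the tested members were called, near the 42.4% of all genes, so the family as a whole changed about as often as other genes. The groups did not overlap in 22 of the 39 (56.4%, against 54.0% of all genes), with IFN-beta above control in 9 (28.6% of all genes) and below it in 13 (25.4% of all genes). A change of at least 0.5 on the log2 scale was found in 4 of the higher members (SLC25A28, SLC25A45, SLC25A30 and SLC25A25), and 8.42% of all genes rose as much. Among the lower members it was found in 1, SLC25A53, and 3.67% of all genes fell as much. The median change was -0.06 over the tested members and 0.01 over all tested genes.

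The split between higher and lower calls moved with the scaling, with 10 higher and 8 lower members after rescaling each library to the same sum, and 6 higher and 14 lower after quantile normalization. Over all genes 53.2% of the calls were higher, against 63.2% and 41.3% under these scalings. Reads from the mitochondrial genome made up between 6.14% and 6.63% of control libraries and between 4.53% and 5.01% of IFN-beta libraries. After rescaling without the mitochondrially encoded genes 9 members were higher and 9 lower. In bulk RNA a lower level in every cell and fewer cells that express a gene cannot be told apart.

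**Figure D1:**
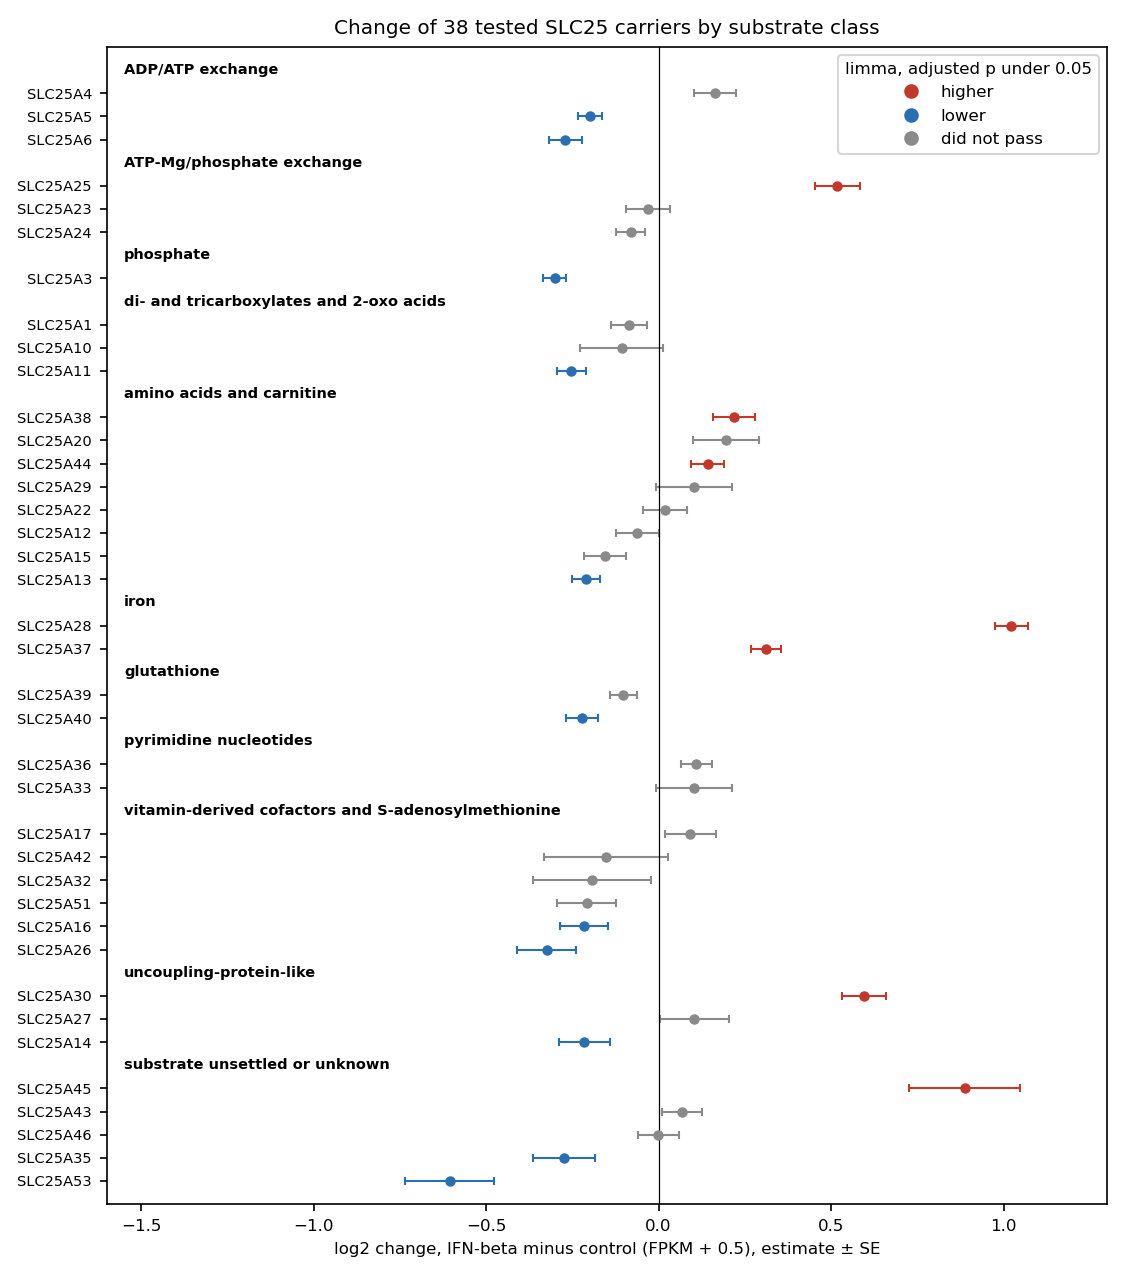
Change in log2(FPKM + 0.5) between IFN-beta and control libraries (x axis, limma estimate ± SE, n = 3 per group) for 38 of the 39 tested members, grouped by substrate. Red points are higher, blue points lower and grey points did not pass at an adjusted p under 0.05; SLC25A28 lies farthest to the right at 1.02 and SLC25A53 farthest to the left at -0.61.

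Both iron carriers rose, where 22.5% of all tested genes rose. SLC25A28 (mitoferrin 2) and SLC25A37 (mitoferrin 1) bring iron into the matrix, where heme and iron-sulfur clusters are made. SLC25A28 (ENSG00000155287, chromosome 10 from 99610522 to 99620609, minus strand) stood at 38.3, 37.2 and 37.6 FPKM in the control libraries and at 74.6, 74.5 and 82.3 FPKM in the IFN-beta libraries. Every IFN-beta value was far above every control value, at means of 37.7 ± 0.588 and 77.1 ± 4.47 FPKM. Its log2 change was 1.02 ± 0.048 (limma adjusted p = 6.16e-07), a ratio of means of 2.05, and it passed in all 18 alternatives with changes from 0.97 to 1.07. The depth behind it was between 936 and 1093 reads per control library and between 1907 and 2427 per IFN-beta library.

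SLC25A37 stood at 38.8, 36.9 and 36.0 FPKM in control and at 47.3, 45.6 and 46.1 FPKM in IFN-beta libraries, again without overlap. It rose by 0.31 ± 0.043 on the log2 scale (limma adjusted p = 0.000531). The pair was at nearly the same level in control cells, with a log2 ratio of SLC25A28 to SLC25A37 of -0.02, 0.01 and 0.06, and at 0.65, 0.70 and 0.83 with IFN-beta. The ratio therefore differed by 0.71 between groups, more than the spread between libraries (exact permutation over libraries, two-sided p = 0.1, the lowest this design allows, and 0.220 adjusted over 11 pairs). The summed level of the iron class went from 75.0 ± 1.93 FPKM in control to 123 ± 4.37 FPKM with IFN-beta.

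Several genes of heme and iron-sulfur cluster synthesis fell. Of 15 listed genes of these paths 13 were tested, of which 1 rose and 8 fell. Over all tested genes 22.5% rose and 19.9% fell, and among those at 20 to under 100 FPKM 26.3% fell. Of the 8 falls 4 passed in all 18 alternatives (PPOX, ISCU, ISCA2 and GLRX5), while CPOX passed in 8, LYRM4 in 11, FECH in 13 and NFS1 in 17 of them. The one that rose was ALAS1, the first enzyme of heme synthesis (log2 change 0.30). The largest falls were in ISCA2 (-0.34) and GLRX5 (-0.32), which act late in cluster assembly, and in PPOX (-0.29), a late enzyme of heme synthesis.

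**Figure D2:**
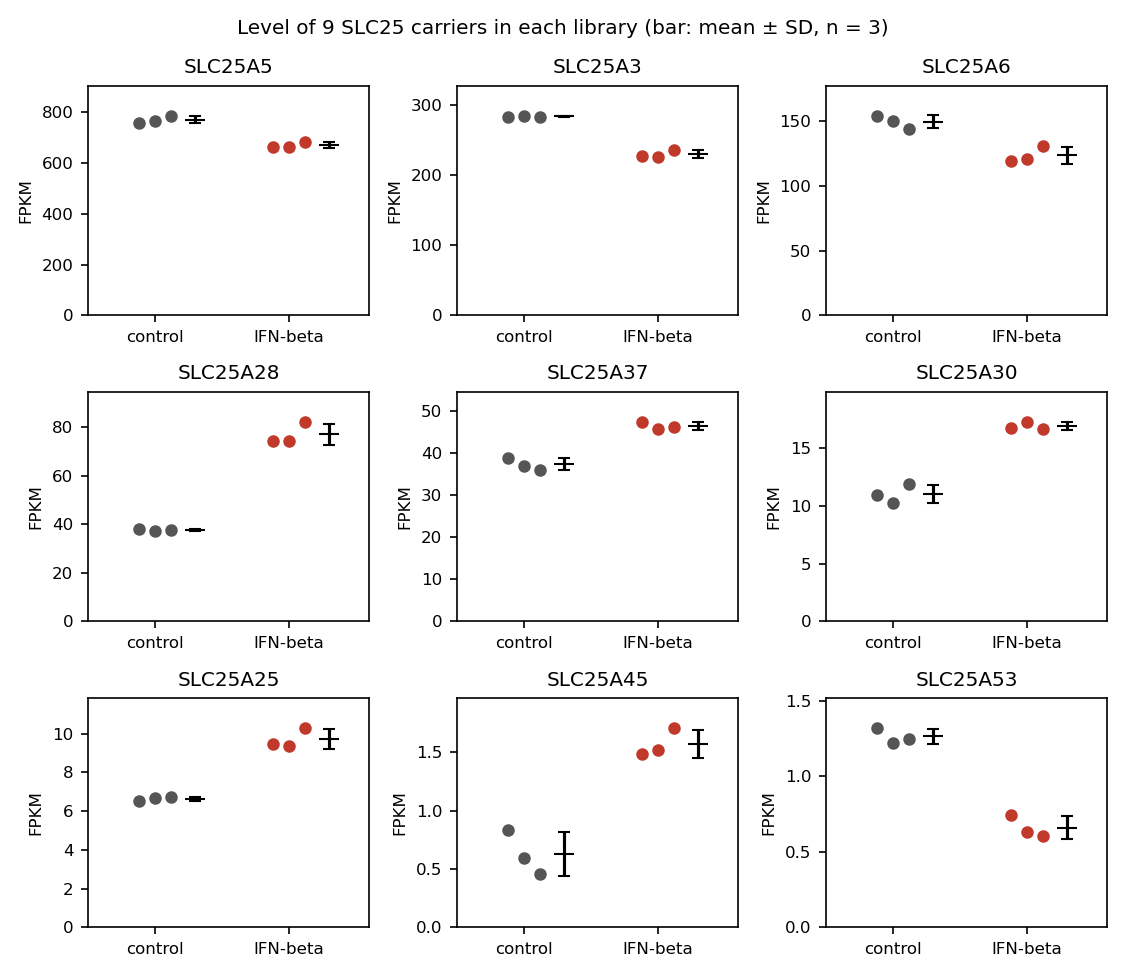
FPKM (y axes, each from 0) of 9 carriers in the 3 control libraries (grey) and the 3 IFN-beta libraries (red), with the mean ± SD beside the points. The groups do not overlap in any panel: SLC25A5, SLC25A3, SLC25A6 and SLC25A53 are lower with IFN-beta and the other 5 are higher. All 9 are called members, so the panels do not stand for the family. Among all tested genes 54.0% did not overlap.

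The ADP/ATP carriers, which exchange matrix ATP for cytosolic ADP, were the most abundant class. Of its 3 tested members the 2 abundant ones fell. Falls made up 19.9% of all tested genes and 40.1% of those at 100 FPKM or more. SLC25A5 (ANT2, chromosome X from 119468422 to 119471396) stood at 758, 765 and 785 FPKM in control and at 663, 663 and 683 FPKM in IFN-beta libraries, with every IFN-beta value below every control value. Its log2 change was -0.20 ± 0.035 (limma adjusted p = 0.00201), and -0.13 after quantile normalization, where it still passed (adjusted p = 0.00678). SLC25A6 (ANT3) stood at 154, 150 and 144 FPKM in control and at 119, 121 and 131 FPKM with IFN-beta, a fall of -0.27 ± 0.047 (limma adjusted p = 0.00175). The log2 ratio of SLC25A5 to SLC25A6 was 2.36 ± 0.076 in control and 2.43 ± 0.049 in IFN-beta libraries, a difference of 0.07 with overlapping groups (two-sided exact permutation p = 0.200, 0.314 adjusted over 11 pairs).

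SLC25A4 (ANT1), the form known from heart and muscle, was scarce, at 7.29, 7.26 and 7.73 FPKM in control and 8.30, 8.47 and 8.36 FPKM after IFN-beta. The groups did not overlap, but the change of 0.16 ± 0.061 did not pass (limma adjusted p = 0.0586). It passed without control replicate 3 (0.0467), after rescaling to the same sum (0.0244), after rescaling without mitochondrially encoded genes (0.0466), in the fit without trend (0.0325) and with limma voom on recovered reads (0.0315). Its share of the summed FPKM of the class was 0.802% ± 0.0208 in control and 1.04% ± 0.0258 in IFN-beta libraries. The log2 ratio of SLC25A4 to SLC25A5 was 0.36 higher with IFN-beta (two-sided exact permutation p = 0.1, 0.220 adjusted over 11 pairs). SLC25A31 (ANT4), known from the testis, had 0 reads in all 6 libraries, where the floor is 3 reads per library. Of the exonic bases of SLC25A5 15.1% are shared with SLC25A5-AS1 on the opposite strand, and the table holds rows with pseudogene symbols of SLC25A5 and SLC25A6, so how their reads were divided is uncertain.

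SLC25A3, the phosphate carrier that supplies ATP synthase and also carries copper, was the second most abundant member. It stood at 284, 285 and 284 FPKM in control and at 228, 227 and 237 FPKM in IFN-beta libraries, and the groups were well apart. Its log2 change was -0.30 ± 0.034 (limma adjusted p = 0.000163). SLC25A5, SLC25A3 and SLC25A6 together made up 57.1% ± 0.294 of the summed FPKM of the family in control and 52.2% ± 0.309 in IFN-beta libraries, and the sum over all 48 members was 2107 ± 5.47 and 1961 ± 33.4 FPKM. These were the 3 members with a mean of at least 100 FPKM. Among all 1410 tested genes at that level 40.1% fell and 22.9% rose, so falls were common at such levels in the whole table. Across the 39 tested members level and change had a Spearman rho of -0.04, and across all tested genes of -0.11, both given as descriptions across genes.

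**Figure D3:**
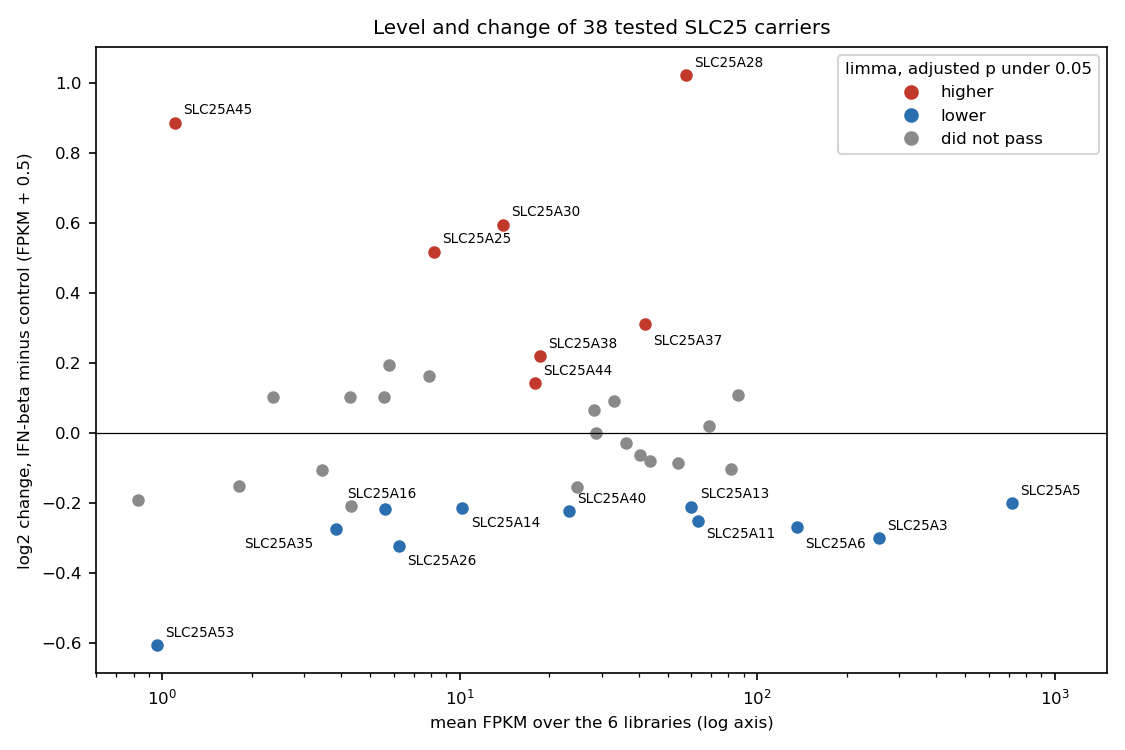
Mean FPKM over the 6 libraries (x axis, log scale) and log2 change between IFN-beta and control (y axis) of 38 of the 39 tested members. Called members are named; the 3 members above 100 FPKM lie between -0.30 and -0.20, and the 2 members farthest from 0 below 2 FPKM are SLC25A45 and SLC25A53.

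The carriers of ATP-Mg and phosphate, most of which calcium opens, change the total adenine nucleotides of the matrix. Among them 1 member rose and 2 did not pass. Of all tested genes 22.5% rose. SLC25A25 stood at 6.53, 6.66 and 6.73 FPKM in control and at 9.48, 9.38 and 10.3 FPKM in IFN-beta libraries, and rose by 0.52 ± 0.065 on the log2 scale (limma adjusted p = 0.000297). Of its exonic bases 16.2% are shared on the opposite strand, partly with SLC25A25-AS1, which had means of 1.94 FPKM in both groups. The more abundant SLC25A24 stood at 43.0, 45.3 and 46.7 FPKM in control and 42.2, 42.9 and 42.3 FPKM with IFN-beta (-0.08, limma adjusted p = 0.161). SLC25A23 stood at 39, 37.8 and 32.8 FPKM in control and 35.5, 35.7 and 35.9 FPKM with IFN-beta (-0.03, limma adjusted p = 0.735). The log2 ratio of SLC25A24 to SLC25A25 was 2.67 ± 0.040 in control and 2.07 ± 0.080 with IFN-beta, a difference of -0.60 (two-sided exact permutation p = 0.1, 0.220 adjusted over 11 pairs). The summed level of the class was 88.3 ± 1.74 and 88.0 ± 0.702 FPKM. SLC25A41 was not tested, with 3 to 11 reads per library.

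Among carriers of di- and tricarboxylates and 2-oxo acids 1 of 3 tested members fell, where 19.9% of all tested genes fell. SLC25A11, the oxoglutarate carrier of the malate-aspartate shuttle, stood at 71.7, 68.4 and 65.8 FPKM in control and at 56.9, 57.9 and 57.6 FPKM with IFN-beta (-0.25 ± 0.042, limma adjusted p = 0.00134). SLC25A13 (citrin), an aspartate/glutamate carrier of the same shuttle, stood at 64.9, 66.2 and 62.4 FPKM in control and at 56.9, 54.6 and 55.4 FPKM with IFN-beta (-0.21 ± 0.040, limma adjusted p = 0.00276). In both genes all IFN-beta values lay below all control values. The citrate carrier SLC25A1, which exports citrate for lipid synthesis, stood at 59.5, 53.7 and 54.7 FPKM in control and at 50.3, 52.4 and 55.4 FPKM with IFN-beta, where the groups overlapped (-0.09, limma adjusted p = 0.226). The dicarboxylate carrier SLC25A10 had a change of -0.11 at 3.61 ± 0.604 FPKM in control and did not pass, and a same-strand neighbour shares 46.6% of its exonic bases. SLC25A21, the oxoadipate carrier, was below the filter at 7 to 16 reads per library.

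Of 8 tested amino acid and carnitine carriers 2 were higher and 1, SLC25A13, was lower. These counts are near the shares over all tested genes, of which 22.5% were higher and 19.9% lower. SLC25A38, which brings in glycine for heme synthesis, stood at 18.1, 16.6 and 16.7 FPKM in control and at 19.7, 21.3 and 19.1 FPKM with IFN-beta, and rose by 0.22 ± 0.060 (limma adjusted p = 0.0167). It no longer passed when control replicate 2 was left out (limma adjusted p = 0.0618) or IFN-beta replicate 2 (0.0685). SLC25A44, the carrier of branched-chain amino acids, went from 17.0 ± 0.253 to 18.8 ± 0.561 FPKM (0.14 ± 0.048, limma adjusted p = 0.0387). It missed the threshold when control replicate 2 or 3 was left out (limma adjusted p = 0.0973 and 0.0705), when IFN-beta replicate 1, 2 or 3 was left out (0.134, 0.0994 and 0.0525), with median-of-ratios size factors (0.0587) and after quantile normalization (0.130).

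SLC25A22, the main glutamate carrier here, did not pass, with 74.8, 64.6 and 65.2 FPKM in control and 70.4, 64.9 and 71.6 FPKM with IFN-beta (0.02, limma adjusted p = 0.838). SLC25A12 (aralar), the other aspartate/glutamate carrier, stood at 41.3 ± 3.55 and 39.5 ± 0.992 FPKM and did not pass (-0.06), although it passed without control replicate 1 (-0.13, limma adjusted p = 0.0410). The log2 ratio of SLC25A12 to SLC25A13 differed by 0.15 between groups that overlapped (two-sided exact permutation p = 0.200, 0.314 adjusted over 11 pairs). The ornithine carrier SLC25A15 differed by -0.16 (limma adjusted p = 0.0643) but passed without IFN-beta replicate 3 (0.0294), with median-of-ratios size factors (0.0475) and after quantile normalization (0.0246). The carnitine carrier SLC25A20 differed by 0.20 (limma adjusted p = 0.130) but passed without control replicate 3 (0.0378). The basic amino acid carrier SLC25A29 had a change of 0.10 and did not pass. SLC25A2 and SLC25A18, the second ornithine and glutamate carriers, had 0 to 4 reads per library and were not tested.

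The glutathione carriers lay lower with IFN-beta, and 1 of the 2 passed, where 19.9% of all tested genes were lower. SLC25A40 stood at 24.6, 26.0 and 24.7 FPKM in control and at 21.3, 21.0 and 21.9 FPKM with IFN-beta, a fall of -0.22 ± 0.046 (limma adjusted p = 0.00429). SLC25A39 stood at 85.1, 84.7 and 84.1 FPKM in control and at 77.2, 76.7 and 82.7 FPKM with IFN-beta (-0.10, limma adjusted p = 0.0700). With IFN-beta replicate 3 left out it passed (limma adjusted p = 0.0330), as it did with median-of-ratios size factors (0.0450) and after quantile normalization (0.0182). The log2 ratio of SLC25A39 to SLC25A40 was 0.12 higher with IFN-beta (two-sided exact permutation p = 0.1, 0.220 adjusted over 11 pairs).

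Neither carrier of pyrimidine nucleotides passed. SLC25A36 stood at 80.4, 84.3 and 84.1 FPKM in control and at 94.2, 89.0 and 85.5 FPKM with IFN-beta, values that did not overlap (0.11, limma adjusted p = 0.0812), and it passed after rescaling to the same sum (0.0228). SLC25A33 was scarce, at 2.45, 2.07 and 2.21 FPKM in control and at 2.46, 2.21 and 2.67 FPKM with IFN-beta (0.10, limma adjusted p = 0.484).

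Among the carriers of cofactors 2 of 7 tested members fell, where 19.9% of all tested genes fell. SLC25A26, which brings S-adenosylmethionine to the methyltransferases of the matrix, stood at 6.37, 7.11 and 7.53 FPKM in control and at 5.04, 5.71 and 5.73 FPKM with IFN-beta (-0.32 ± 0.086, limma adjusted p = 0.0150). Its call ended without IFN-beta replicate 1 (limma adjusted p = 0.0567), and 15.5% of its exonic bases are shared with LRIG1 on the opposite strand. SLC25A16, linked to coenzyme A, went from 6.05 ± 0.141 to 5.13 ± 0.200 FPKM (-0.22 ± 0.070, limma adjusted p = 0.0341). This call was borderline. It was lost when control replicate 1, 2 or 3 was left out (limma adjusted p = 0.0633, 0.103 and 0.0501), when IFN-beta replicate 1, 2 or 3 was left out (0.0830, 0.0530 and 0.102), without the filter on level (0.0541) and after rescaling to the same sum (0.0809, and 0.0524 without mitochondrially encoded genes).

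The other cofactor carriers described here did not pass. SLC25A17, the peroxisomal carrier of coenzyme A and related cofactors, stood at 28.4, 31.6 and 35.7 FPKM in control and at 33.7, 33.7 and 34.3 FPKM with IFN-beta (0.09, limma adjusted p = 0.351), and passed without control replicate 3 (0.18, adjusted p = 0.0293). SLC25A51, the NAD carrier, differed by -0.21 (limma adjusted p = 0.0813) with groups that did not overlap, and passed after quantile normalization (0.0222). Its near copy SLC25A52 had 1 read in all. The folate carrier SLC25A32 (-0.19) and the coenzyme A carrier SLC25A42 (-0.15) did not pass. They had only 37 to 64 and 38 to 81 reads per library. A same-strand neighbour shares 69.7% of the exonic bases of SLC25A32.

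Of the 3 carriers that resemble the uncoupling proteins 1 rose, 1 fell and 1 did not pass. Of all tested genes 22.5% rose and 19.9% fell. SLC25A30, first described in kidney, stood at 11.0, 10.3 and 11.9 FPKM in control and at 16.8, 17.3 and 16.7 FPKM with IFN-beta, and rose by 0.60 ± 0.063 on the log2 scale (limma adjusted p = 0.000109). SLC25A14, its close relative known from brain, stood at 11.5, 11.4 and 10.2 FPKM in control and at 10.2, 9.14 and 8.95 FPKM with IFN-beta, where the groups overlapped (-0.21 ± 0.074, limma adjusted p = 0.0444). SLC25A14 no longer passed when control replicate 1 or 2 was left out (limma adjusted p = 0.115 and 0.133), when IFN-beta replicate 2 or 3 was left out (0.125 and 0.135), without the filter on level (0.0935), after rescaling to the same sum (0.105, and 0.0715 without mitochondrially encoded genes), in the fit without trend (0.0629) and with limma voom on recovered reads (0.0564). The log2 ratio of SLC25A14 to SLC25A30 was near 0 in control, at 0.06, 0.15 and -0.21, and stood at -0.69, -0.89 and -0.86 with IFN-beta. That difference of -0.81 was the largest of the 11 pairs (two-sided exact permutation p = 0.1, 0.220 adjusted over 11 pairs). SLC25A27 stood at 4.12 ± 0.462 and 4.46 ± 0.374 FPKM and did not pass (0.10).

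**Figure D4:**
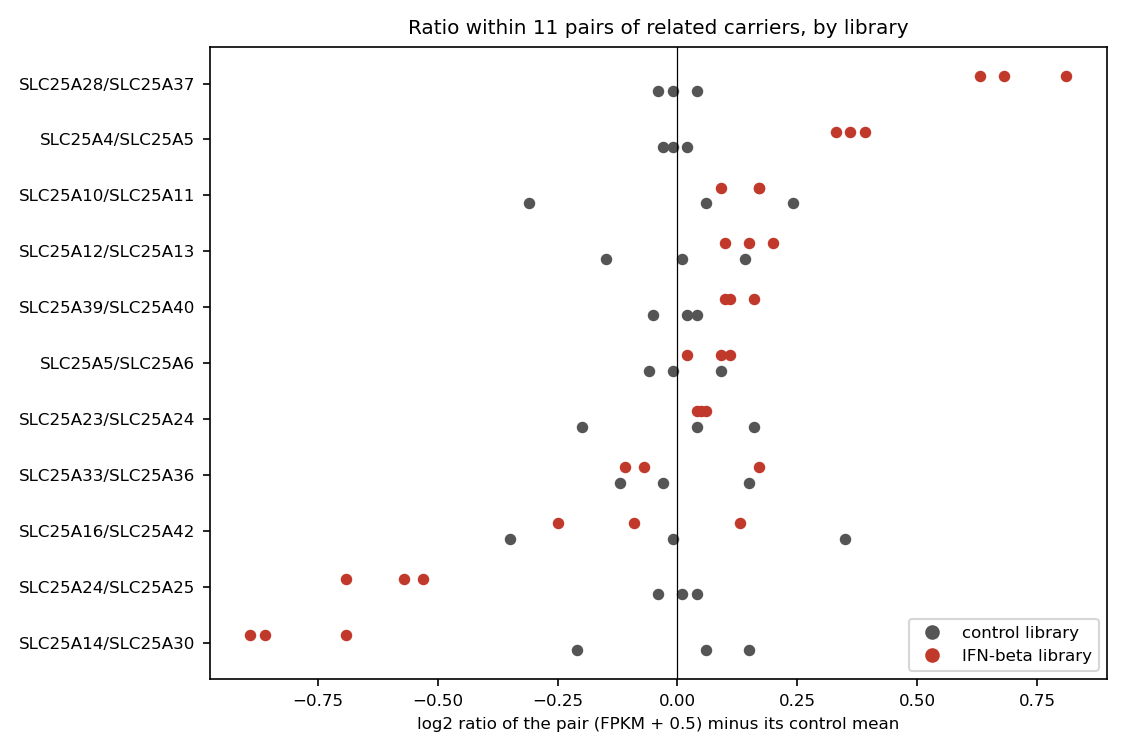
Log2 ratio of FPKM + 0.5 within 11 pairs of related carriers, as the difference from the pair's control mean (x axis), for each control library (grey) and IFN-beta library (red). The groups do not overlap in 5 of the 11 pairs: SLC25A28/SLC25A37, SLC25A4/SLC25A5 and SLC25A39/SLC25A40 are higher with IFN-beta, and SLC25A24/SLC25A25 and SLC25A14/SLC25A30 are lower. Among all tested genes taken singly 54.0% did not overlap, and no such share was computed for other pairs. The lowest exact permutation p was 0.1, or 0.220 adjusted over the 11 pairs.

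Of the 5 tested members whose substrate is unsettled 1 rose and 2 fell, all at low levels. The shares over all tested genes were 22.5% and 19.9%. SLC25A45 stood at 0.835, 0.599 and 0.456 FPKM in control and at 1.49, 1.52 and 1.71 FPKM with IFN-beta, or 21 to 44 reads against 72 to 93. Its log2 change was 0.89 ± 0.16 (limma adjusted p = 0.00208), and the ratio of mean FPKM was 2.50, above that of SLC25A28. By limma voom on recovered reads the change was 1.33, also above the 1.03 of SLC25A28. SLC25A53 went the other way, at 1.32, 1.22 and 1.25 FPKM in control and 0.745, 0.629 and 0.603 FPKM with IFN-beta, or 112 to 135 reads against 58 to 78. It fell by -0.61 ± 0.13 on the log2 scale (limma adjusted p = 0.00609), at a ratio of means of 0.522 and a change of -0.94 by voom. SLC25A35 went from 4.25 ± 0.230 to 3.43 ± 0.266 FPKM (-0.27 ± 0.090, limma adjusted p = 0.0364), with 33.2% of its exonic bases shared with RANGRF on the opposite strand. It missed the threshold when control replicate 1 or 2 was left out (limma adjusted p = 0.0967 and 0.103), when IFN-beta replicate 1, 2 or 3 was left out (0.121, 0.0519 and 0.0622), without the filter on level (0.0852) and after rescaling to the same sum (0.0694).

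The more abundant members of that group differed little. SLC25A46, an outer membrane protein linked to mitochondrial shape, stood at 26.7, 28.8 and 30.4 FPKM in control and at 29.9, 28.6 and 27.3 FPKM with IFN-beta (limma adjusted p = 0.994). SLC25A43 stood at 28.5, 27.3 and 26.7 FPKM in control and at 29.1, 30.7 and 26.8 FPKM with IFN-beta (0.07, limma adjusted p = 0.385). SLC25A34 was below the filter at 6 to 9 reads per library, SLC25A47, known from liver, had 1 read in all, and SLC25A48 had 0 reads in all 6 libraries.

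Carrier-fold proteins with other symbols and the import route were measured beside the family. MTCH2, an outer membrane insertase of the carrier fold, had a log2 change of -0.34 and was the one of 4 tested to pass, while MTCH1, UCP2 and UCP3 did not pass and UCP1 was listed at 0. Of 15 genes of carrier import 14 were tested, of which 5 fell, or 35.7% against 19.9% of all genes. They were the small chaperones TIMM10 (-0.53), TIMM8A (-0.50) and TIMM13 (-0.33) and the receptors TOMM22 (-0.27) and TOMM20 (-0.18), while the carrier receptor TOMM70 and the insertase TIMM22 did not pass. Of 19 other transport genes 4 rose and 11 fell, or 57.9% lower, against 22.5% of all genes higher and 19.9% lower, and 4 of the 11 falls did not pass in every alternative. The largest changes were in SFXN5 (0.65) and SFXN2 (-0.55), both sideroflexins, and in the pyruvate carrier subunit MPC2 (-0.44). Falls were more common at higher levels in the whole table. Among all tested genes 20.8% fell at 5 to under 20 FPKM, 26.3% at 20 to under 100 FPKM and 40.1% at 100 FPKM or more. Of the import genes that fell, TOMM20 had a mean of 169 FPKM. TIMM10 (91.6), TOMM22 (78.0), TIMM13 (53.4) and TIMM8A (12.5) lay below 100 FPKM. TOMM7 (236) and TOMM70 (129) lay above it and did not pass. Among the transport genes VDAC1 (335) and VDAC3 (234) fell, while VDAC2 (255) did not pass. The part of level in the falls of these lists was not tested.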

How the data were processed

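RNA of 6 HaCaT libraries was sequenced, and the authors deposited 1 table of FPKM values for 60671 genes. Per the labels' protocols 1 field names an RNeasy kit and another TRIzol for the extraction, and CLC Genomics Workbench 11.0.1 is listed without its role. For the aligner, for the counter and for strand the answer is "not given in the sources used here". The submitters' processing notes list GRCm38 and mm10, both of mouse, whereas all 60671 identifiers are human. Of the 58453 identifiers also in GENCODE release 29 (GRCh38) 76.9% had the same chromosome, start and end, as did 19 of the 48 members, so coordinates are printed as deposited and the build is inferred. Exon overlaps were counted in GENCODE. The value columns were matched to samples by name.

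Whole reads were recovered from the FPKM steps within 0.01 reads for 30506 of 30507 genes above 0, and summed to at least 99.72% of each library's total. A low count can be a fraction of the true one, and reads are not independent molecules, so the floor of 3 reads covers counting error only. The test was limma 3.58.1 (R 4.3.3, eBayes with trend, two-sided) on log2(FPKM + 0.5), run on the 15163 genes whose mean reached 0.5 FPKM, at an adjusted p of 0.05. Log2 ratios of related carriers were compared by exact permutation over libraries. A score or sum over members got no test. Other steps used Python 3.11.15 with pandas 2.3.3, numpy 2.4.6 and matplotlib 3.10.9. The fit was checked on simulated data.

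The members, classes, pairs and lists were chosen with earlier results of these data known. 1 tested member is not reported here by name or in the figures but is part of all counts and sums; the others are named. Library values are given for called members with a change of at least 0.5 in size, for the 3 largest changes in each direction and for up to 2 members per class by level. Other members given by library were chosen after their values were seen. Up to 3 called genes of each other list are named by size of change, and further ones (among them CPOX, LYRM4, FECH, NFS1, ISCU, single markers, TOMM20, TOMM22, TOMM70 and TIMM22) were chosen after their values were seen. Alternatives were other pseudocounts (0.1 and 1), filters and scalings, eBayes without trend or with robust fitting, limma voom on recovered reads, the replicate number as a block, and each library left out.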

Additional observations from a re-analysis of the deposited data

How the results depend on the processing

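The counts of members called ran from 5 to 10 higher and from 8 to 14 lower over 18 alternatives, against 7 and 11. Leaving out single libraries gave 5 to 10 higher and 8 to 10 lower. Of 698 log2 changes of members recomputed, 636 stayed on their side of the threshold, 38 lost and 24 gained a call. The sign differed in 14 of them, in 5 members (SLC25A22, SLC25A23, SLC25A33, SLC25A42 and SLC25A46), none of which passed in either fit. Rescaling to the same sum moved the summed level, as log2 of the ratio of means, to -0.16 for the ADP/ATP class (from -0.21), to -0.26 for phosphate (from -0.30), to 0.04 for ATP-Mg/phosphate (from -0.00) and to 0.01 for amino acids and carnitine (from -0.04), by construction of that scaling. Differences in log2 ratio of SLC25A28 to SLC25A37 ran from 0.66 to 0.75 and of SLC25A14 to SLC25A30 from -0.91 to -0.74 without single libraries. The replicate block gave 7 higher and 9 lower members and ended the calls of SLC25A16, SLC25A35 and SLC25A44 (limma adjusted p = 0.0679, 0.0705 and 0.0744). In paired ratios the difference for SLC25A28 to SLC25A37 was 0.71 (two-sided exact sign-flip permutation p = 0.25, the smallest possible). What a shared replicate number marks is not stated in the labels. Deviations of same-numbered libraries from the group means correlated with r between -0.098 and -0.052. Of the 6 libraries 0 correlated best with their own number. Centring on 3 libraries per group ties these correlations to each other, so they cannot decide whether the libraries are paired. Depth limits SLC25A32, SLC25A42, SLC25A45, SLC25A53 and the 9 members that were not tested.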

Other observations

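The table also holds 47 rows whose symbols extend those of the carriers, 41 with pseudogene symbols and 6 antisense genes, which the rule leaves out. None of the 41 pseudogene rows reached the filter on level. The highest of their values was 0.160 FPKM, and 32 had 0 reads in every library. Of the antisense genes 3 were tested. SLC25A21-AS1 stood at 0.931, 0.693 and 0.805 FPKM in control and at 0.241, 0.313 and 0.476 FPKM in IFN-beta libraries, and fell by -0.64 ± 0.17 on the log2 scale (limma adjusted p = 0.0168). It rested on 40 to 53 reads per control and 14 to 28 reads per IFN-beta library, and the ratio of means was 0.424. By limma voom on recovered reads the change was -1.26, and with a pseudocount of 0.1 it was -1.06. It did not pass without control replicate 1 (limma adjusted p = 0.0579) or without IFN-beta replicate 1 (0.0553). Its sense partner SLC25A21 was at 0.298 ± 0.0782 and 0.356 ± 0.0502 FPKM, below the filter. SLC25A5-AS1 differed by -0.22 (limma adjusted p = 0.106) and SLC25A25-AS1 by 0.00 (limma adjusted p = 0.982), beside -0.20 for SLC25A5 and 0.52 for SLC25A25.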
